A study of Homo sapiens with 4 samples.

Results

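HCT116-only open regions are ATAC-seq peaks that were called in the colorectal cancer line HCT116 and that shared no base with a peak of the lines SKBR3, T47D or RKO. On chromosomes 1 to 22, 5198 of the 38941 HCT116 peaks met this rule, and the other 33743 overlapped a peak of at least 1 other line by 1 bp or more. The 4 lists together held 287463 peaks on these chromosomes. A strong subset was set at a pileup of 8 or more, the pileup being the number of extended tags stacked at the summit after removal of duplicates, and 604 HCT116-only peaks were in it. The calls chose the members, so every difference between HCT116-only and shared peaks in strength, width or position is a description of the lists and carries no test.

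The series profiled open chromatin in HCT116 and RKO, both labelled colorectal cancer, and in SKBR3 and T47D, both labelled breast cancer. All 4 lines were labelled WT in genotype with no treatment named, and a single library of 60 bp single-end reads was made from each. McCoy's 5A was the medium of HCT116 and SKBR3, DMEM that of RKO and RPMI that of T47D, and the culture label names fetal bovine serum and an antibiotic and antimycotic solution. The study is concerned with the control of PVRL4, a cell surface protein and drug target, by the FOS family of transcription factors.

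In ATAC-seq a transposase cuts accessible DNA and leaves sequencing adapters there, so that tags pile up where nucleosomes have been displaced. Such sites are promoters, enhancers, insulators and other places where proteins bind DNA. Promoters of widely used genes tend to be open in most cells, whereas distal enhancers are often open in few cell types. HCT116 and RKO are both mismatch repair-deficient colorectal carcinoma lines.

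HCT116 was the shallowest library. It held 1057628 tags after duplicate removal, against 3262240 to 5450100 in the other lines, and 63% of its tags were duplicates, against 47% to 63%. A call in HCT116 therefore rests on few tags, and each other list was made from a deeper library against that library's own background. Being called in HCT116 alone does not show that a region is closed elsewhere. With 1 library per line there was no replicate check, and the 95% intervals given are exact Clopper-Pearson intervals that cover counting error only.

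Most HCT116-only peaks were weak. Their median pileup was 4 tags (interquartile range 3 to 5), against 6 (4 to 11) for shared HCT116 peaks, and 65.6% of them had a pileup under 5, against 30.5% of shared peaks. Fold enrichment is the authors' ratio of (pileup + 1) to (local background + 1), so it is not independent of pileup. Its median was 4.07 (3.72 to 5.42) for HCT116-only peaks and 6.03 (4.56 to 8.70) for shared peaks. The median −log10 q was 3.92 and 6.33 for the same sets. Of the HCT116-only peaks, 267 (5.14%) had a −log10 q of at least 10, against 9565 (28.3%) of the shared peaks. HCT116-only peaks covered 0.793 Mb of the genome and shared peaks 7.06 Mb.

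The share of HCT116 peaks that were called nowhere else was lower the higher the peaks were, with small departures from that order above 10 tags. Over all HCT116 peaks the share was 13.3% (95% interval 13.0 to 13.7). It was 35.3% (33.1 to 37.6) at a pileup of 2, where 607 of 1718 peaks were HCT116-only, and 27.8% (26.8 to 28.9) at a pileup of 3. It was 8.02% (7.05 to 9.08) at a pileup of 7 and 0.75% (0.42 to 1.23), or 15 of 2000 peaks, at 21 or more. By class, 24.9% of peaks with a pileup under 5 were HCT116-only, 11.1% of those with 5 to under 8, and 4.13% (3.81 to 4.47) of those with 8 or more. The strong members were thus 604 of 14618 strong HCT116 peaks.

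**Figure D1:**
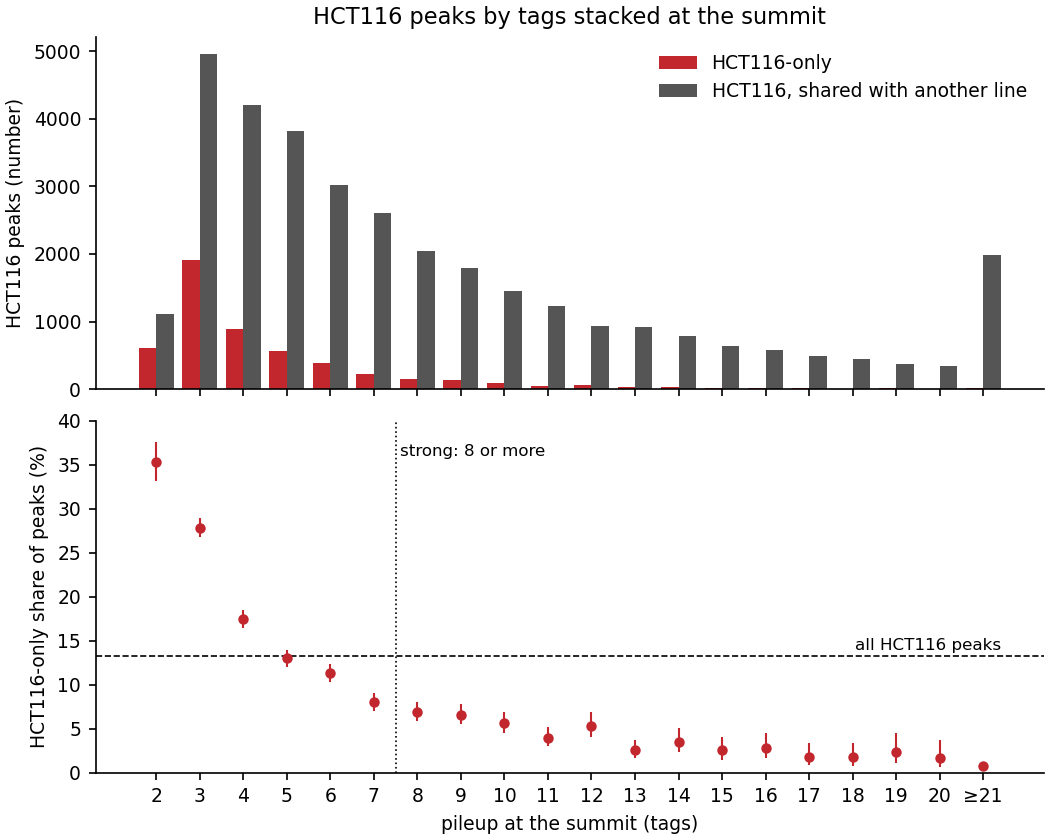
Number of HCT116 peaks by pileup at the summit (top; HCT116-only beside peaks shared with another line) and the HCT116-only share at each pileup with its exact 95% interval (bottom; dashed line, 13.3% over all HCT116 peaks; dotted line, the limit of the strong subset). The share is 35.3% at 2 tags and 0.75% at 21 or more.

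The limit of the strong subset fell within a continuous range. Just outside it were the 227 HCT116-only peaks with a pileup of 7. Their median fold enrichment was 6.65 (full range 4.03 to 7.44), their median −log10 q 6.96 (full range 2.28 to 10.1) and their median width 180 bp. Just inside were the 152 with a pileup of 8. Their median fold was 7.13 (full range 4.07 to 8.21), their median −log10 q 7.59 (full range 2.51 to 11.1) and their median width 189 bp. These sets differed by 1 tag, and their full ranges of fold and q overlapped.

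The number of other lines that shared a peak went with its strength step by step. HCT116 peaks called in 0, 1, 2 and 3 other lines numbered 5198, 5921, 7599 and 20223. Their median fold was 4.07, 4.65, 5.05 and 7.16, and 11.6%, 17%, 24.2% and 55.2% of them were strong. In these measures HCT116-only peaks were therefore closest to peaks shared with a single line. Among those, the peaks shared with RKO alone, the other colorectal line, were the most numerous and the strongest, at 2748 peaks of which 21.9% were strong. SKBR3 alone shared 1936 peaks, of which 13.8% were strong, and T47D alone shared 1237, of which 11.1% were strong.

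HCT116-only peaks were narrow. Their median width was 117 bp (107 to 175), against 178 bp (121 to 256) for shared peaks. The smallest width the caller allows in this library is the modelled fragment length of 107 bp, and 44.9% (43.5 to 46.2) of HCT116-only peaks had exactly that width, against 17.4% (17 to 17.9) of shared peaks. Most of the difference in median width went with height. At a pileup under 5 the medians were 107 and 111 bp, at 5 to under 8 they were 155 and 158 bp, and at 8 or more 222 and 255 bp. The share at the smallest width stayed higher for HCT116-only peaks. It was 62.7% against 47.1% under 5 and 15.4% against 9.97% at 5 to under 8. At 8 or more it was 1.66% (0.797 to 3.02) against 0.692% (0.562 to 0.844). Within the strong class the HCT116-only peaks were also lower, with a median pileup of 10 against 12. A wide peak meets an overlap of 1 bp more easily, so width was in part chosen by the rule. The widest HCT116-only peak spanned 702 bp and the widest shared peak 1744 bp.

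The local background under HCT116-only peaks was low. Expressed as a multiple of the genome-wide level of the library, its median was 2.20 (1.38 to 4.13), against 4.68 (2.48 to 9.35) under shared peaks. At equal height the sets were close. At a pileup under 5 the medians were 1.65 and 1.93, at 5 to under 8 they were 4.13 and 3.85, and at 8 or more 8.80 and 9.91. Few strong members stood on very high background, 8 of 604 (1.32%) lying over 50 times the genome-wide level, and 20 had a fold enrichment under 5. The background window is 10 kb wide and includes the peak itself and its neighbours.

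The 20 strongest HCT116-only peaks had pileups of 20 to 40 tags, fold enrichments of 4.83 to 16.4 and widths of 184 to 669 bp, and lay on 9 chromosomes. All positions are hg19. The highest was on chromosome 1, 17026785 to 17027351, with a pileup of 40, a fold of 12.9 and a −log10 q of 31.2. The next was on chromosome 6, 159151525 to 159151977, with a pileup of 36, a fold of 15.8 and the highest −log10 q of any HCT116-only peak, 33.3. Both had another HCT116-only peak as their next HCT116 neighbour, at 703 bp (pileup 17) and 7369 bp (pileup 6).

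Several of these peaks stood alone in HCT116. The peak at chromosome 4, 190643477 to 190643965, had a pileup of 27 and a fold of 16.3. Its nearest HCT116 neighbour was 70749 bp away, and T47D and RKO had no peak within 50 kb of it. The nearest call of another line was an SKBR3 peak of 3 tags at 27243 bp. The peak at chromosome 10, 127350732 to 127351004, had the highest fold of any HCT116-only peak, 16.4, with a pileup of 23, and its next HCT116 peak was 32335 bp away. At chromosome 17, 80817887 to 80818223, a peak with a pileup of 20 had its next HCT116 peak at 78211 bp, while SKBR3 had 12 peaks within 50 kb and T47D 8. RKO had 4 peaks within that distance. The nearest SKBR3 peak, of 35 tags, lay at 1101 bp and the nearest T47D peak, of 31 tags, at 1198 bp. This last peak was thus a single HCT116 call within a neighbourhood that was densely called in the breast lines. As HCT116 was the shallowest library, the lack of further HCT116 calls around such peaks says little.

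Others had company. On chromosome 17 the peak at 70657617 to 70658215, with a pileup of 27 and a fold of 12.7, lay in a window of 100 kb with 7 HCT116-only peaks, described below. A second peak on that chromosome, at 55453192 to 55453471, had a pileup of 24, a fold of 15.8 and an HCT116-only neighbour of 8 tags at 3605 bp. On chromosome 10, the peak at 114277163 to 114277541 had a pileup of 20 and an equally high HCT116-only neighbour 1766 bp away. On chromosome 5, 115264445 to 115264941, a peak of 25 tags lay 1409 bp from a shared HCT116 peak of 26 tags. Of the 20, 9 had another HCT116 peak within 10 kb, and for 7 the next HCT116 peak was itself HCT116-only. Over all 604 strong members these shares were 61.3% and 26.7%, so such neighbours were not particular to the 20.

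Chromosome 1 held 3 of the 20 within 338 kb, between 16861402 and 17199741. Their pileups were 40, 22 and 20, and their backgrounds 55.9, 19.0 and 18.4 times the genome-wide level. HCT116 had 23 peaks in this stretch, and 18 of them were shared, so it was not a stretch open in HCT116 alone. Another of the 20 on chromosome 1, at 161425363 to 161425546, differed from the other 19. It had a pileup of 22 but a fold of 4.83 and a −log10 q of 7.43, since its background was 96.9 times the genome-wide level. Within 20 kb of it HCT116 had 15 peaks, of which 4 were HCT116-only with pileups of 13 to 22, folds of 3.59 to 6.49 and backgrounds of 29.7 to 103 times. The 4 highest shared peaks there, of 39 to 44 tags, had summits 7379, 7408 and 7473 bp apart. The nearest SKBR3 peak lay 492 bp from this member, so it marks a gap between calls in a densely called stretch.

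Further members of the 20 were found on chromosome 2, at 227538084 to 227538410 (23 tags, fold 15.2), 182741398 to 182741738 (21 tags, fold 15.3) and 240169188 to 240169761 (21 tags, fold 11). Chromosome 10 held another, at 72338138 to 72338544 (26 tags, fold 12.0), and chromosome 5 another, at 151124703 to 151125213 (22 tags, fold 13.1). On chromosome 16 a peak lay at 18605221 to 18605561 (21 tags, fold 14.2) and on chromosome 17 another at 79068693 to 79069069 (20 tags, fold 11.2). For the peak at 182741398 on chromosome 2 the nearest calls of SKBR3, T47D and RKO lay at almost one distance, 14596, 14549 and 14642 bp. HCT116 also had a shared peak of 10 tags at a similar distance, 15152 bp between summits. Whether these calls were of 1 site was not examined.

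The distance to calls of other lines varied widely among the 20. The gap to the nearest peak of any other line ran between 1 and 27243 bp, with a median of 2299.5 bp. In 5 it was over 10 kb, in 5 it was within 1 kb and in 3 within 500 bp. The 1 bp gap was at chromosome 14, 77594721 to 77595096, where a peak of 20 tags nearly touched an RKO peak of 2 tags. On chromosome 1, 17199073 to 17199741, a T47D peak of 6 tags lay 209 bp away. Under a rule that allows for such near misses these peaks would not be members.

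**Figure D2:**
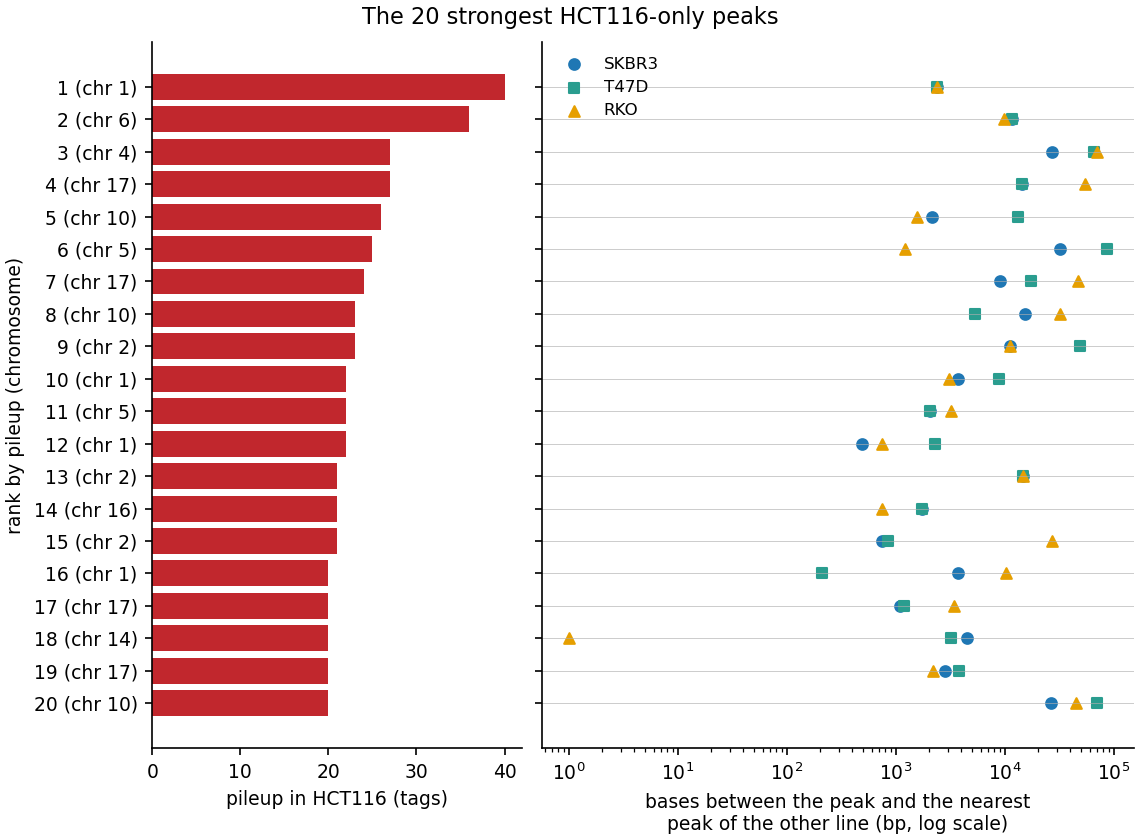
The 20 HCT116-only peaks with the highest pileup, with their pileup in HCT116 in tags (left) and the number of bases to the nearest peak of SKBR3, T47D and RKO on a log axis (right). Gaps to the nearest line run between 1 and 27243 bp, and 5 of the 20 peaks have no peak of another line within 10 kb.

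Near misses were a minority of all HCT116-only peaks. The median gap to the nearest peak of any other line was 3818 bp (interquartile range 1086.5 to 9980.5). It was within 100 bp for 340 peaks (6.54%, 5.88 to 7.25), within 1 kb for 1248 (24.0%, 22.9 to 25.2) and over 10 kb for 1294 (24.9%). For strong members the gap was within 100 bp in 14 of 604 (2.32%, 1.27 to 3.86), within 1 kb in 129 (21.4%, 18.2 to 24.8) and over 10 kb in 115 (19.0%). HCT116-only peaks thus mostly lay several kilobases from any other call. Few were remote, as 14 peaks, all of them with a pileup under 5, had no other line's peak within 100 kb.

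The strong members farthest from any other line were on chromosome 7, 19140249 to 19140466 (11 tags, fold 10.1), with a gap of 93610 bp, and on chromosome 4, 111985598 to 111985784 (9 tags, fold 8.46), with a gap of 88011 bp. Both also lacked another HCT116 peak within 50 kb. They were chosen for this distance after the values were seen.

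Which line came nearest depended on list length. Summit to summit, the nearest call of another line was in SKBR3 for 47.7% (46.4 to 49.1) of HCT116-only peaks, in RKO for 28.9% and in T47D for 23.4%. SKBR3 also had the longest list, with 108561 peaks against 75390 in T47D and 64571 in RKO. Each other list was then cut to as many peaks as HCT116 had, keeping those of highest −log10 q. RKO was then nearest for 39.6% (38.3 to 41), SKBR3 for 31.9% (30.6 to 33.2) and T47D for 28.5% (27.2 to 29.7). For strong members these shares were 42.9% (38.9 to 46.9), 29.5% and 27.6%. With lists of equal length the other colorectal line came nearest most often, though not for most peaks. The members were still those chosen against the full lists of unequal length, so this order also depends on the rule.

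The neighbourhood of HCT116-only peaks held fewer calls of the other lines than that of shared peaks. Within 50 kb, the median number of SKBR3 peaks was 5 around HCT116-only peaks and 7 around shared peaks, that of T47D peaks 3 and 5, and that of RKO peaks 3 and 5. Around strong peaks the medians were 6 and 8 for SKBR3, 4 and 6 for T47D, and 4 and 6 for RKO. The number of other HCT116 peaks within 50 kb differed less, with medians of 2 and 3 for all peaks and 3 and 3 for strong peaks. A shared peak has a call of at least 1 other line at its own position, which adds to the count of each line that it overlaps.

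The HCT116-only share differed between chromosomes. It was highest on chromosome 4, where 341 of 1631 HCT116 peaks (20.9%, 19 to 23) were HCT116-only, and on chromosome 18, with 132 of 688 (19.2%, 16.3 to 22.3). Chromosomes 6 and 2 followed with 17.2% (15.6 to 18.8) and 16.9% (15.5 to 18.3). It was lowest on chromosome 19, with 150 of 2102 (7.14%, 6.07 to 8.32), and on chromosome 20, with 102 of 1142 (8.93%, 7.34 to 10.7). Against 13.3% over all HCT116 peaks, the intervals of these 6 chromosomes lay clear of that value. Those of chromosomes 5 (15.4%, 13.8 to 17.1), 1, 11, 15, 16, 17 and 22 did as well, the last 6 on the low side.

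Among strong peaks, chromosome 4 again had the highest share, 40 of 481 (8.32%, 6.01 to 11.2), against 4.13% over all strong HCT116 peaks. Chromosome 21 came next with 12 of 157 (7.64%, 4.01 to 13), an interval that includes 4.13%. Chromosome 10 followed with 41 of 654 (6.27%, 4.54 to 8.41). Chromosome 18 did not keep its place, with 5 of 210 (2.38%, 0.778 to 5.47). Chromosome 22 held 6 of 395 (1.52%, 0.559 to 3.28), chromosome 11 18 of 789 (2.28%, 1.36 to 3.58) and chromosome 19 27 of 1136 (2.38%, 1.57 to 3.44). On chromosome 18 the high share was thus one of peaks below the limit, at 32.1% for a pileup under 5 and 17.8% for 5 to under 8. On chromosome 4 the share was high in every pileup class, at 32.4%, 16.3% and 8.32%.

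**Figure D3:**
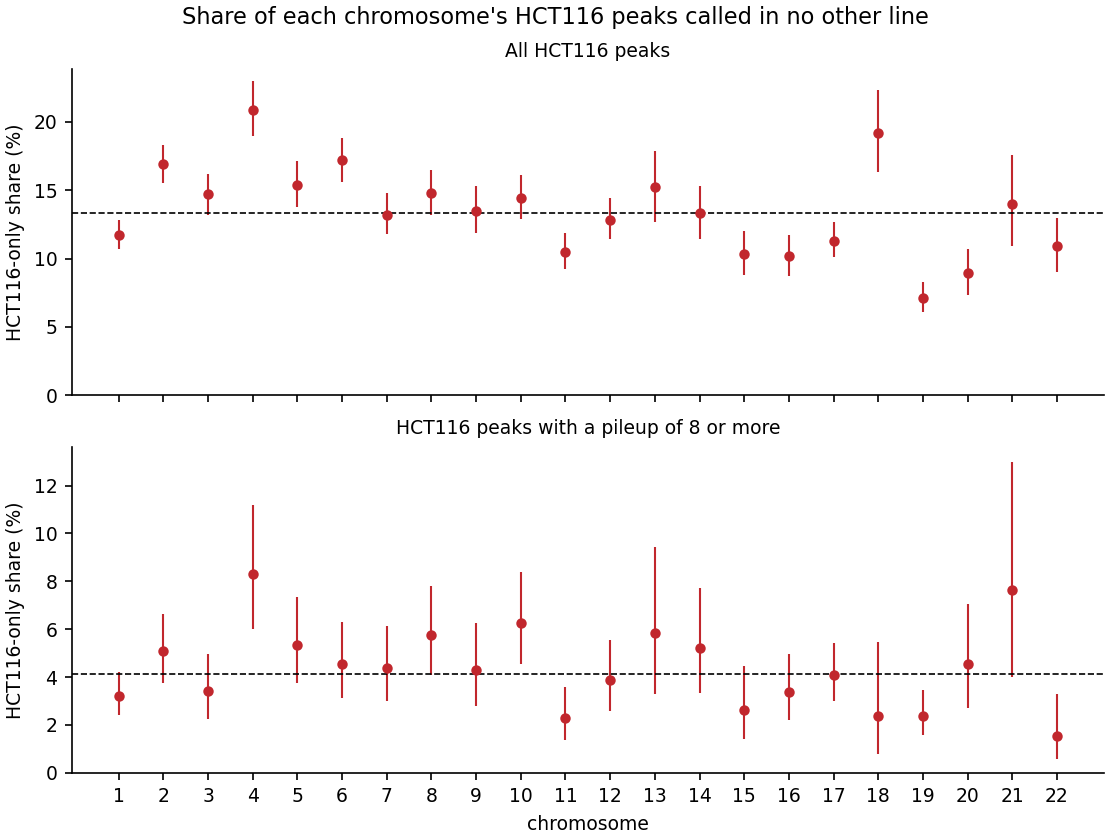
HCT116-only share of each chromosome's HCT116 peaks with exact 95% intervals, for all peaks (top; dashed line 13.3%) and for peaks with a pileup of 8 or more (bottom; dashed line 4.13%). Chromosome 4 is highest in both panels, at 20.9% and 8.32%, and chromosome 18 is at 19.2% in the top panel and 2.38% in the bottom one.

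The chromosomes with the highest HCT116-only share had few peaks for their length. Counted up to its last peak, chromosome 4 had 8.54 HCT116 peaks per Mb and chromosome 18 8.82, against 35.6 on chromosome 19 and 18.1 on chromosome 20. Over the 22 chromosomes the share went down with peak density (Pearson r = -0.72, Spearman rho = -0.82, all from the same libraries). The number of HCT116-only peaks per Mb instead went up with density (r = 0.77, rho = 0.60), lying between 1.03 on chromosome 13 and 3.26 on chromosome 17. Chromosome 17 also had most strong members per Mb, 0.554, followed by chromosome 19 with 0.457. So HCT116-only peaks were more frequent per length on peak-rich chromosomes but a smaller part of the peaks there.

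Bins of 1 Mb showed the same relation over all heights. The HCT116-only share was 19.4% (17.5 to 21.5) in bins with 1 to 5 HCT116 peaks, 18.2% in bins with 6 to 10, 16.5% in bins with 11 to 20, 11.9% in bins with 21 to 40 and 7.32% (6.72 to 7.96) in bins with over 40. The mix of heights changed as well, as peaks with a pileup under 5 were 869 of 1530 in the sparsest bins and 1473 of 6911 in the densest. At a pileup under 5 the shares in the same order were 28.5%, 28.9%, 27.9%, 22.4% and 17.2%. At 5 to under 8 they were 12.7%, 14%, 12.8%, 10.4% and 8.16%. Within these classes the share thus fell mainly in bins with 21 peaks or more. For strong peaks the relation over chromosomes had the same sign (r = -0.48, rho = -0.58, 22 chromosomes), but over bins the order was not a steady one. Their share was 2.13% (0.86 to 4.33) in the sparsest bins, 4.56% (3.40 to 5.97), 5.32% (4.6 to 6.11) and 4.21% (3.72 to 4.75) in the middle bins and 2.90% (2.38 to 3.50) in the densest. The strong share was thus highest in bins with 11 to 20 peaks, though its interval overlapped those of the bins next to it in density.

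Over all heights, the stretches beside the first and last called peaks of chromosomes were poor in HCT116-only peaks. These need not be the chromosome ends. Within 2 Mb of the first or last peak of a chromosome 8.39% (7.30 to 9.59) of HCT116 peaks were HCT116-only. The share was 13.7% (13.3 to 14.0) more than 2 Mb from both these outer peaks and the longest peak-free stretch of each chromosome. For strong peaks the shares were 3.54% (2.55 to 4.77) and 4.23% (3.89 to 4.59). Beside that longest stretch, which on most chromosomes was about 3 Mb or more, the share over all heights was 13.0% (10.8 to 15.5). There 6 of 297 strong peaks (2.02%, 0.745 to 4.35) were HCT116-only.

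HCT116-only peaks lay next to each other more often than shared peaks lay next to an HCT116-only peak. The next HCT116 peak was itself HCT116-only for 24.0% (22.9 to 25.2) of HCT116-only peaks, against 11.9% (11.5 to 12.2) of shared peaks. Of all HCT116 peaks, 13.3% were HCT116-only. Among strong peaks the figures were 26.7% (23.2 to 30.4) and 9.79% (9.30 to 10.3). The difference was widest at close range. Where the next peak was within 1 kb, it was HCT116-only for 287 of 658 HCT116-only peaks (43.6%, 39.8 to 47.5), 43 of 86 strong members (50%, 39 to 61) and 6.68% (6.04 to 7.37) of shared peaks. At 1 to 10 kb the shares were 22.6% (20.6 to 24.8), 23.2% (18.5 to 28.6) and 11.7% (11.1 to 12.4). Beyond 100 kb the intervals of HCT116-only peaks (20.1%, 16.2 to 24.5) and shared peaks (18.8%, 16.9 to 20.8) overlapped. Neighbouring peaks within 1 kb may be parts of a single open region that the caller split, and 12.7% of HCT116-only peaks and 16.4% of shared peaks had such a neighbour.

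**Figure D4:**
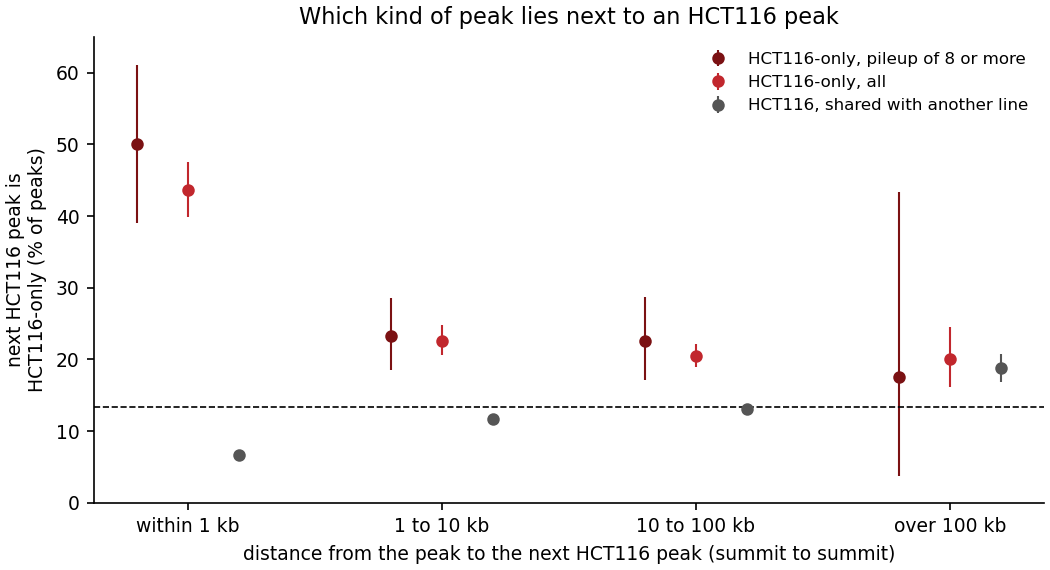
Share of HCT116 peaks whose next HCT116 peak is HCT116-only, by the distance between the summits, with exact 95% intervals, for strong HCT116-only peaks, all HCT116-only peaks and peaks shared with another line. The dashed line marks the 13.3% of HCT116 peaks that are HCT116-only. The intervals of HCT116-only and shared peaks lie apart at every distance up to 100 kb and overlap beyond it.

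Within 10 kb, strong members had another HCT116 peak more often than shared peaks of the same class, and within 50 kb they did so about equally often. Another HCT116 peak lay within 10 kb for 61.3% (57.2 to 65.2) of strong members and 52.6% (51.8 to 53.4) of strong shared peaks. Within 50 kb the shares were 90.1% (87.4 to 92.3) and 89.9% (89.4 to 90.4). The median distance to the next summit was 6806 bp (interquartile range 2210 to 21256) for strong members and 9144 bp (1918 to 23872) for strong shared peaks, so the lower quartile was larger for strong members. Over all heights, within 10 kb, the order was the other way, 42.5% (41.2 to 43.9) against 46.4% (45.9 to 47). At a pileup under 5 the shares were 36.3% and 34.9%, and at 5 to under 8 they were 50.8% and 49.9%. Another HCT116-only peak lay within 10 kb for 136 strong members (22.5%, 19.2 to 26.1) and for 717 HCT116-only peaks in all (13.8%, 12.9 to 14.8). The lower figure over all heights went with the large number of weak, isolated calls among HCT116-only peaks.

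Read along the chromosome, 3275 HCT116-only peaks (63.0%) had no HCT116-only peak next to them in the list, and 1923 (37.0%) formed 793 runs of 2 or more in a row. Runs of 4 or more numbered 68 and held 321 peaks (6.18%). By windows of 100 kb, 4220 of the 14967 windows with an HCT116 peak held an HCT116-only peak, and 47 held 4 or more. The windows and runs named below were picked for their counts, so the counts describe these places and test nothing.

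There were 2 windows with 7 HCT116-only peaks, the highest count of any window. That on chromosome 17, 70600001 to 70700000, held 8 HCT116 peaks, 7 of them HCT116-only and 3 of those strong. In order along the chromosome their pileups were 4, 11, 6, 9, 4, 27 and 5 tags, and the highest of them is 1 of the 20 strongest. RKO had no peak in this window, SKBR3 had 3 and T47D 5. The tallest of these had pileups of 55 in SKBR3 and 47 in T47D, both at the shared HCT116 peak. A T47D peak of 5 tags had its summit 100 bp from an HCT116-only summit. The stretch was therefore open in the breast lines too, and the window was empty of calls in the other colorectal line.

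In the other, on chromosome 3, 98600001 to 98700000, 7 of 10 HCT116 peaks were HCT116-only, with pileups of 2 to 10 tags and a median of 6. RKO had 4 peaks there, SKBR3 2 and T47D 1. Of the 7, 5 lay at or beyond 98673866, where neither breast line had a call and the shared HCT116 peak was met by RKO alone. HCT116-only peaks there reached 10 tags at 98685795 to 98685938.

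Chromosome 4 held the longest run. Between 30768887 and 30830342, 9 HCT116 peaks in a row were HCT116-only, and SKBR3, T47D and RKO had no peak in these 61.5 kb. Their pileups in order were 6, 9, 3, 5, 3, 3, 3, 15 and 3 tags, so 2 were strong. The highest, at 30823626 to 30823804, had a fold of 11.6 and lay 15250 bp from the nearest summit of another line. The window of 100 kb that starts at 30800001 overlaps this run and held 6 HCT116-only peaks of 8. A further run of 6, between 30964610 and 31086974, began 134 kb after the first ended, with pileups of up to 8 and a single SKBR3 peak inside it. Outside the run of 9, within 500 kb on either side of it, HCT116 had a further 19 peaks, against 5 in SKBR3, 5 in T47D and 7 in RKO. Here the shallowest library had the most calls of the 4 lines.

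On chromosome 10, 8 HCT116-only peaks followed each other between 114277163 and 114418002, and 5 were strong. Their pileups in order were 20, 20, 6, 10, 13, 3, 18 and 4 tags. T47D had no peak in these 141 kb, SKBR3 had 5 of at most 7 tags and RKO 3 of at most 3 tags. The first 5 HCT116-only peaks were each at least 24111 bp from any summit of another line. Of the runs of 8 or 9, this one held the most strong peaks.

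**Figure D5:**
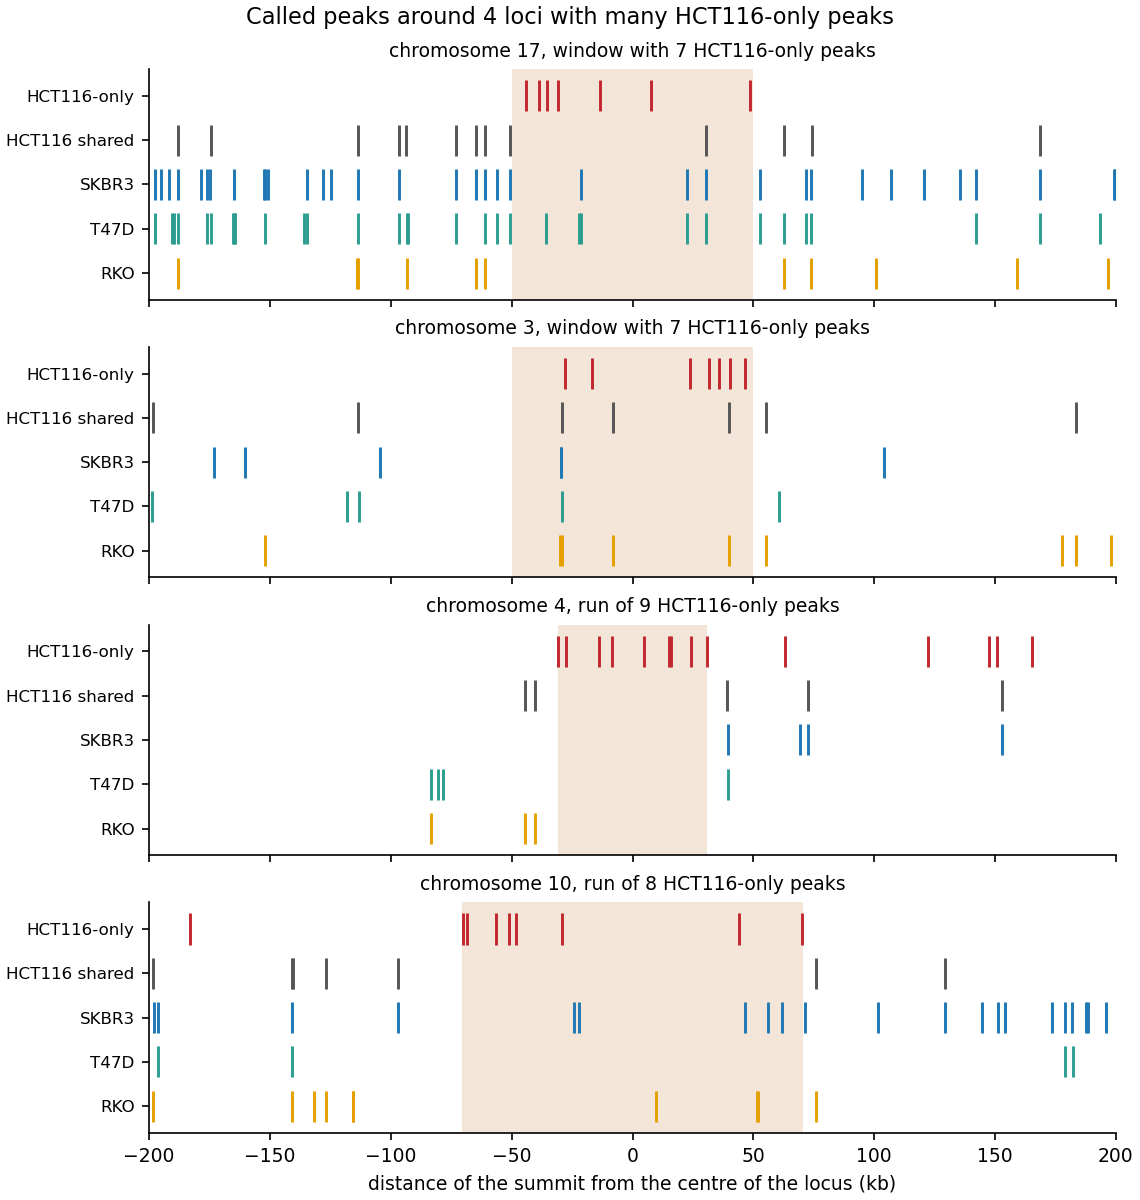
Summits of called peaks within 200 kb of the centre of 4 loci, with a row each for HCT116-only peaks, shared HCT116 peaks, SKBR3, T47D and RKO; the shaded span is the window or run. On chromosome 4 no other line has a call in the shaded span, on chromosome 17 RKO has none and on chromosome 10 T47D has none.

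Near the far end of the long arm of chromosome 4, 8 HCT116-only peaks in a row lay between 187751083 and 187854226, and 3 were strong. They lay in 4 pairs, with pileups in order of 6, 5, 6, 14, 3, 4, 12 and 8 tags. SKBR3 had no peak in these 103 kb, T47D had 1 and RKO 2, of at most 5 tags. The 2 remaining runs of 8 were weaker. That on chromosome 11, 27739922 to 28071109, held 1 strong peak of 14 tags, and that on chromosome 6, 130618163 to 131222337, held none, its highest peak having 5 tags. The run on chromosome 6 spanned 604 kb and SKBR3 had 8 peaks in it, T47D 8 and RKO 9. That stretch was therefore not open in HCT116 alone.

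The other named windows held 5 HCT116-only peaks each and were 5 of 16 windows with that count, taken for their number of strong members and then for the HCT116-only share of their peaks. On chromosome 8, 6400001 to 6500000, 4 of the 5 were strong, at 8 to 15 tags, RKO had no peak, SKBR3 had 7 and T47D 3. On chromosome 4, 169400001 to 169500000, 3 of 5 were strong and the tallest had 11 tags. In the windows on chromosome 5, 145300001 to 145400000, and on chromosome 4, 75500001 to 75600000, 2 of 5 were strong, with top pileups of 10 and 12. All 3 other lines had 2 to 6 peaks in each of these last 3 windows. The window on chromosome 10, 114200001 to 114300000, held the first 5 peaks of the run described above.

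No gene is named at these positions, since the gene table at hand is on GRCh38 and the lists are on hg19. For the same reason the sequence of the peaks, their motifs and their distance to gene starts were not analysed here.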

How the data were processed

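Peaks were called in 1 ATAC-seq library for each of 4 lines with MACS3 3.0.0b3 after Bowtie2 2.4.1 on hg19, per the submitters' processing notes. Per the file headers, each library was called by itself with a q cutoff of 0.1, no control, an effective genome of 2910000000 bp and 1 tag kept per position. The fragment model was 105 to 117 bp, and no shift to the transposase cut site is named. No filter on mapping quality is named there. The deposited rows give a pileup signal in tags, a fold enrichment, which is the authors' ratio of (pileup + 1) to (local background + 1), and −log10 p-values and q-values. HCT116-only and shared peaks were compared in these values within the HCT116 list alone. In the other lists, −log10 q ranked each list's own peaks where lists were cut to equal length. Pileups printed for other lines are in that library's own tags and were not scaled for depth.

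HCT116 peaks on chromosomes 1 to 22 were split by overlap of 1 bp or more with the other lists (Python 3.11.15, pandas 2.3.3, scipy 1.17.1). Local background was recovered from pileup and fold; its lowest value, 0.0388, compares with 0.0389 expected if all kept tags were spread evenly. Neighbour distances are between summits, gaps between peak edges. Tests between lines were not run, as each has 1 library. Named were the 20 highest strong peaks, 8 windows of 100 kb with most members (ties taken by strong members, then by share) and the 5 longest runs. Members, lists and classes were chosen with earlier results of these data known. On 434 simulated intervals the 7 steps of the interval code gave 0 wrong answers. The planned gene lists, label check by markers, promoter distances, GC and motifs need an hg19 annotation or genome and were not run.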

Additional observations from a re-analysis of the deposited data

Results flagged for a closer look

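HCT116 peaks called in no other line were also found on sequences that the comparisons do not use. Each count was above the 3 calls that a count of 0 allows, but 0 was not expected here, so passing that limit shows nothing. On chromosome X there were 129 such peaks of 958 (13.5%, exact 95% interval 11.4 to 15.8), 9 of them strong, against 13.3% on chromosomes 1 to 22. On the hs37d5 decoy sequence there were 49 of 270 (18.1%, 13.7 to 23.3), 4 of them strong. On unplaced contigs there were 8 of 100 (8%, 3.52 to 15.2), and the highest of these had a pileup of 61, above the 40 of any HCT116-only peak on the chromosomes compared.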

How the results depend on the processing

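Of 67 recomputed values, 43 stayed within their limits (a count within 1.5-fold, another value within the interval of the main one), 24 moved and none changed sign. With the other lists shortened to the HCT116 list length there were 10061 members and 1081 strong members, against 5198 and 604, a member share of 25.8%, a median width difference of -69 bp against -61 bp, and a difference of -8.38 points in the share with an HCT116 peak within 10 kb, against -3.93. Without the RKO list there were 7946 members, 1205 strong members, a share of 20.4% and a width difference of -55 bp. The member share was 18.3% without the SKBR3 list, 16.5% without the T47D list, 16.2% where 50% of a peak had to be covered, 12.6% for peaks whose −log10 q reached 2, and 10.1% where no other peak within 1 kb was allowed. The last rule gave 3951 members and 475 strong members, a width difference of -54 bp and -9.08 points within 10 kb, and the rule of 50% cover a width difference of -56 bp. A pileup minimum of 6 or 10 gave 1217 or 325 strong members. The excess of HCT116-only next neighbours among strong peaks, 16.9 points, and the strong share within 10 kb (8.65 points, 4.84 to 9.05 over its alternatives) were added after seeing the data. The excess was 12.1 where the next peak had to be more than 1 kb away, 22.1 with 50% cover, 22.6 with shortened lists, 22.5 without SKBR3 and 22.4 without RKO. Shortened or absent lists make fewer overlaps by construction. Likewise the rule of 50% cover can only add members, and the rule of 1 kb can only remove them. A pileup minimum of 6 or 10 can only raise or lower the strong count. For the other shifts the cause was not tested. Promoter, GC and motif alternatives were not run for want of hg19 sequence. Depth limits what absence means: HCT116 had 1057628 tags, so places where it lacks a call say little. No paired analysis was possible because each line has 1 library.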
